A study of Homo sapiens with 4 samples.

Results

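The 50 genes described here act in mitosis, the phase in which duplicated chromosomes are condensed, attached to the spindle and pulled apart. They were taken as a named list of mitotic cyclins and kinases, spindle checkpoint, kinetochore, chromosomal passenger, spindle, anaphase and condensin genes, with the transcription factors FOXM1 and MYBL2. They are 50 of 17687 genes named on the array, and all 50 were among the 12381 genes that passed the filter for testing. Each had 1 probe set, so no choice between probe sets was needed. CENPE is the exception in a list otherwise free of motors, since its product is a kinetochore kinesin.

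RNA came from Li-7 cells and HEP-G2 cells, both established human liver cancer lines, and was measured on 1 Affymetrix array per line and treatment. The groups were Li-7 with the miR-4730 mimic, Li-7 with a negative control, HEP-G2 with the mimic and HEP-G2 with a negative control, without replicate arrays. The mimic was given at 3 nM with a lipid reagent 24 h after seeding per the labels' protocols. The sources used here give neither the time from transfection to harvest nor a dose for the negative control. The lines were grown in different media, so line and medium cannot be told apart.

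Entry into mitosis is driven by CDK1 bound to a B-type cyclin, which CDC25 phosphatases switch on. The spindle checkpoint then holds sister chromatids together until every kinetochore is attached, and the anaphase-promoting complex with CDC20 ends the phase by marking cyclins and securin for destruction. Most of these genes are transcribed late in the cell cycle, under the MuvB complex with B-MYB and FOXM1, through promoter elements called CHR. In resting cells the DREAM complex holds the same promoters silent. They are therefore known as markers of dividing cells, in liver cancer as elsewhere.

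The sequence of the mimic's namesake is shown because it is the agent given to the cells. RefSeq places mature miR-4730 at chr17:80419427-80419449 on the plus strand (GRCh38.p14), inside the body of the ENDOV gene, and the seed at bases 2 to 8 is in capitals. No other mature human microRNA in the RefSeq table had this seed.
hsa-miR-4730: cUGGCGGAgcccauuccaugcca

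Promoters were examined because the members are known to share a cell cycle element there, which the choice of genes did not use. RefSeq promoter windows of 300 bases, from 250 before to 50 after the start site, were at hand for 43 members in 55 windows, 8 of the 43 having several. AURKA, BUB3, TTK, BIRC5, TPX2, UBE2C and FOXM1 had none here. The CHR, searched as TTTGAA and TTCGAA on both strands, was present in 65.5% of the members' windows, against 12.6% of 14765 windows of all tested genes and 16.4% of 35116 windows in the table. Counted by gene, 33 of 43 members had it in at least 1 window (76.7%), against 16.5% of 10168 tested genes. Matches that began within the last 50 bases before the start site or the 50 from it were found in 50.9% of the members' windows, against 3.78% of those of all tested genes.

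The CCAAT box, bound by NF-Y and searched as CCAAT on both strands, was present in 65.5% of the members' windows, against 35% of the windows of all tested genes. A window held both elements in 47.3% of the members' windows, against 5.03% of those of all tested genes. An E2F site, searched as TTTGGCGC and TTTCCCGC on both strands, was in 3.64% of the members' windows and 3.15% of those of all tested genes. The 10 members without a CHR match in these windows were CCNA2, CCNB1, CENPE, AURKB, NEK2, SPC24, CKAP2, PTTG1, NCAPH and MYBL2. TTCGAA reads the same on both strands and was counted once per position. A match is a run of letters and no measured binding.

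**Figure D1:**
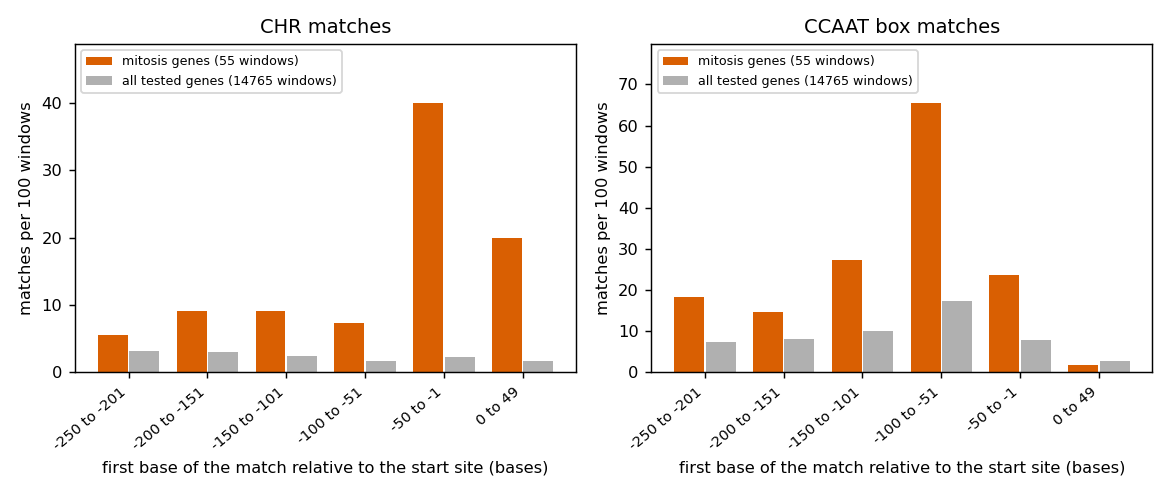
Matches per 100 promoter windows (y axis) by the position of the match's first base relative to the start site (x axis, 50-base bins), for CHR on the left and the CCAAT box on the right; orange bars are the 55 windows of mitosis genes and grey bars the 14765 windows of all tested genes. The members' CHR matches peak at 40 per 100 windows in the 50 bases before the start site, against 2.19 for all tested genes, and their CCAAT matches peak one bin upstream at 65.5 per 100 windows, against 17.2.

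The 6 promoters below are those of the member with the lowest HEP-G2 difference among CHR-bearing members of its role group, in the 6 groups where that difference was lowest. Each runs from 150 bases before the start site to 29 after it on the plus strand of GRCh38.p14, as RefSeq gives it. Capitals mark the letters of a CHR or of a CCAAT box, read on either strand.
NUSAP1 promoter, chr15:41332731-41332910 (+): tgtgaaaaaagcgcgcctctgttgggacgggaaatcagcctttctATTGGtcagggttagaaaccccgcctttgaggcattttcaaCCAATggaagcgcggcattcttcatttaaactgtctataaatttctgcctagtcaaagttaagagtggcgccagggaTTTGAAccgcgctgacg
NCAPD2 promoter, chr12:6493952-6494131 (+): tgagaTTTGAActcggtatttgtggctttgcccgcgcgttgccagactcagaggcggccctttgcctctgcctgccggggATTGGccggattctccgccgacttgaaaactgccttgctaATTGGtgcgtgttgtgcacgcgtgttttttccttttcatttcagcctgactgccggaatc
NDC80 promoter, chr18:2571407-2571586 (+): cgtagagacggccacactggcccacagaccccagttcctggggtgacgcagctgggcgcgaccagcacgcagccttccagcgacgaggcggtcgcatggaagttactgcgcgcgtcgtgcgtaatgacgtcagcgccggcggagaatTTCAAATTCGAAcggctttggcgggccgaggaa
CCNB2 promoter, chr15:59104996-59105175 (+): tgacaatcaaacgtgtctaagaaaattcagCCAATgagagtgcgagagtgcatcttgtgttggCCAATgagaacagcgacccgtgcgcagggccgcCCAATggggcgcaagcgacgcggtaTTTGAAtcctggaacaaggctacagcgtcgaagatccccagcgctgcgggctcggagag
INCENP promoter, chr11:62123861-62124040 (+): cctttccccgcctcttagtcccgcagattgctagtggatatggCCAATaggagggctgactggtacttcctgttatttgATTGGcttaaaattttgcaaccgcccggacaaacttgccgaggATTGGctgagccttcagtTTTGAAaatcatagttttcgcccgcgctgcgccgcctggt
BUB1B promoter, chr15:40160919-40161098 (+): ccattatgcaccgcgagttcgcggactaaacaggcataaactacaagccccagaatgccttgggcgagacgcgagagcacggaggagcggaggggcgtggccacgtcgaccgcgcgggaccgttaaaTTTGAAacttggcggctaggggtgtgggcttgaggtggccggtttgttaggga
In CCNB2 the CHR began 29 bases before the start site, behind CCAAT boxes that began 120, 87 and 54 bases before it. INCENP had a CHR 10 bases before the start site and 3 CCAAT boxes, whereas BUB1B had a CHR 23 bases before it and no CCAAT box. NDC80 had a pair of adjoining CHR matches across the start site and no CCAAT box. In NUSAP1 the CHR lay 13 bases after the start site, and in NCAPD2 it lay 145 bases before it, away from the members' peak. Among the 43 members, the 33 with a CHR match had median differences of -0.28 (Li-7) and -1.81 (HEP-G2). The 10 without a match had -0.37 (Li-7) and -1.65 (HEP-G2).

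With the mimic, mitosis genes had a median difference of -1.80 in HEP-G2, whereas in Li-7 the median was -0.32. All values are on the deposited log2-like scale, and every difference is mimic minus control, so that -1 corresponds to 2-fold lower. A HEP-G2 value 2-fold or more under its control was found for 41 of 50 members, against 6.28% of all tested genes. In Li-7, 3 of 50 were (FOXM1, MYBL2 and SPC25), against 4.12% of all tested genes, so 0 in a small role group there is near that share. Among 8187 tested genes with a mean level at or above the dimmest member, the shares were 7.54% in HEP-G2 and 4.48% in Li-7. At 4-fold, 16 members were lower in HEP-G2, against 0.775% of all tested genes. These counts take the deposited values as they are, and 12 members were dim, or under background, on the HEP-G2 mimic array, background being each array's 95th percentile over its negative control probe sets. CCNF and AURKB were under it on the HEP-G2 control array too, and 0 members were under it in Li-7. With such mimic values raised to background and genes with a control value under it left out, 38 of 48 members still lay 2-fold or more under control in HEP-G2, against 6.93% of 6966 tested genes, and the members' median was -1.65. A difference from a mimic value under background is a lower limit, given below as "at least". No member was 2-fold higher, against 3.72% of all tested genes in Li-7 and 5.77% in HEP-G2. Each difference sets 1 array against 1 and carries no test. In bulk RNA fewer dividing cells and less transcript per cell cannot be told apart.

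**Figure D2:**
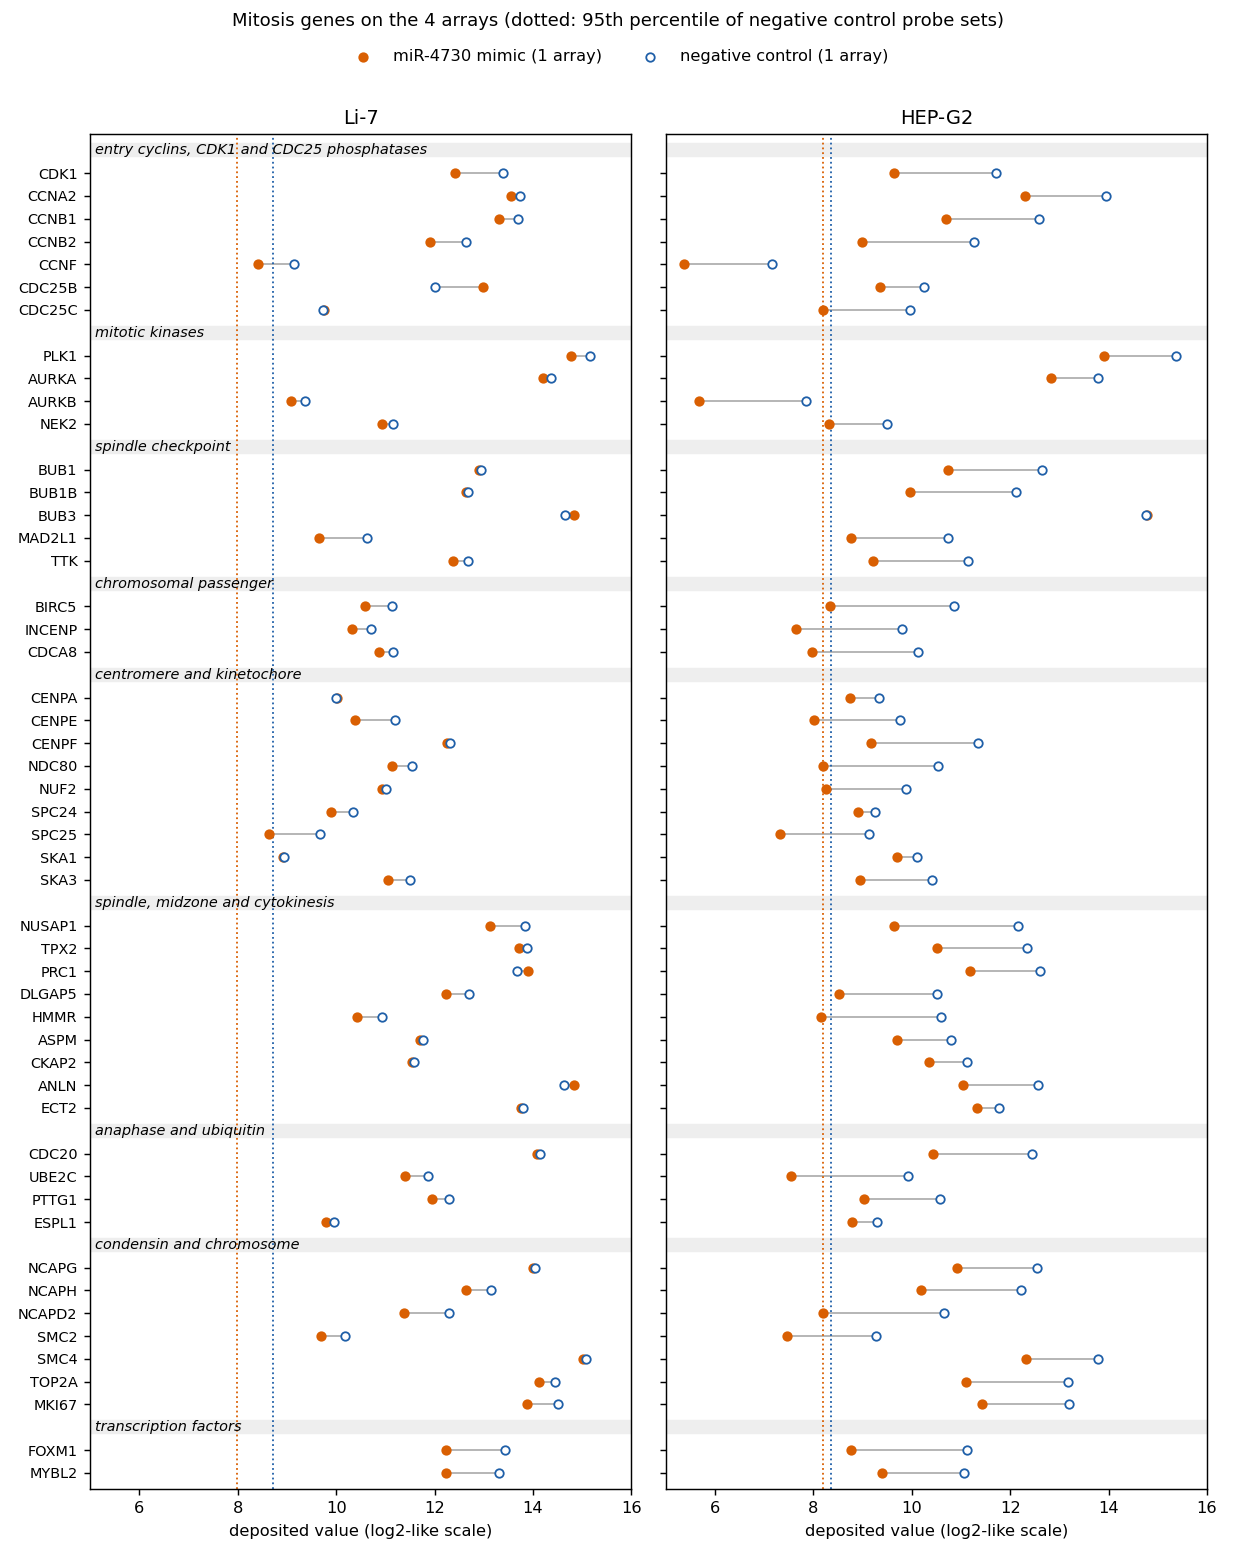
Deposited value on the log2-like scale (x axis) of each of the 50 mitosis genes (rows, by role group) in Li-7 (left) and HEP-G2 (right); filled orange points are the mimic array, open blue points the negative control array, 1 array each, and dotted lines each array's background level (95th percentile over the negative control probe sets). For most genes mimic and control points lie closer together in Li-7 than in HEP-G2, where 49 of 50 mimic points lie to the left.

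HMGA1, the architectural chromatin protein that the series names as the microRNA's target, was checked first. It stood at 10.91 with the mimic and 14.93 with the control in Li-7, and at 11.61 with the mimic and 14.79 with the control in HEP-G2. It was lower with the mimic in both lines. As limits on the lines as models, 0 of 10 liver lineage markers exceeded background on the Li-7 control array. On the Li-7 mimic array 2 of 10 did (SERPINA1 and APOH), and on both HEP-G2 arrays all 10 did, with AFP at 17.17 with the mimic and 16.71 with the control. Of 5 simple epithelium markers, 5 exceeded background on each array of Li-7 and 4 on each array of HEP-G2, CDH1 being the exception. Of 8 measured markers of blood, endothelial and stromal cells, 1 (CD68) was above background on each Li-7 array and 2 (CD68 and ACTA2) on each HEP-G2 array. The background level was 7.99 and 8.72 in Li-7 and 8.20 and 8.35 in HEP-G2, mimic before control.

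The transcription factors FOXM1 and MYBL2 were the members with the lowest differences in Li-7. FOXM1, a forkhead factor that drives late cell cycle genes, stood at 12.24 with the mimic and 13.44 with the control in Li-7, and at 8.77 with the mimic and 11.12 with the control in HEP-G2. Both lines were lower with the mimic, and both HEP-G2 values lay under both Li-7 values. The differences were -1.20 and -2.35, which is 2.29-fold lower in Li-7 and 5.11-fold lower in HEP-G2. MYBL2 encodes B-MYB, the partner of MuvB, and stood at 12.23 with the mimic and 13.30 with the control in Li-7, and at 9.40 with the mimic and 11.06 with the control in HEP-G2. The differences were -1.07 in Li-7 and -1.66 in HEP-G2.

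Among the cyclins, CDK1 and CDC25 phosphatases, 5 of the 6 with a HEP-G2 control value above background lay 2-fold or more under control there, and 0 of 7 did in Li-7. CDK1, the kinase that drives entry, stood at 12.42 with the mimic and 13.38 with the control in Li-7, and at 9.65 with the mimic and 11.72 with the control in HEP-G2. It was lower with the mimic in both lines, just short of 2-fold in Li-7 (1.95-fold) and 4.20-fold in HEP-G2. CCNB1, its main cyclin partner, stood at 13.31 with the mimic and 13.70 with the control in Li-7, and at 10.70 with the mimic and 12.59 with the control in HEP-G2. CCNB2, the second B-type cyclin, stood at 11.91 with the mimic and 12.65 with the control in Li-7, and at 8.99 with the mimic and 11.27 with the control in HEP-G2. The HEP-G2 gap exceeded the Li-7 gap for both, at -1.89 against -0.39 for CCNB1 and -2.28 against -0.74 for CCNB2. CCNA2, which acts in S phase and early mitosis, differed by -0.19 in Li-7 and -1.63 in HEP-G2. CCNF, an F-box cyclin, differed by -0.74 in Li-7, and both its HEP-G2 values (5.37 with the mimic and 7.16 with the control) lay under background, so no fold is given there.

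The CDC25 phosphatases remove the inhibitory phosphates from CDK1. CDC25B stood at 12.98 with the mimic and 12.01 with the control in Li-7, and at 9.36 with the mimic and 10.25 with the control in HEP-G2. It was higher with the mimic in Li-7 (0.97) and lower in HEP-G2 (-0.89), the only member more than 0.5 above its control in either line. CDC25C stood at 9.75 with the mimic and 9.73 with the control in Li-7, and at 8.19 with the mimic and 9.96 with the control in HEP-G2. Its Li-7 values were level, while the HEP-G2 mimic value was just under background, at least 3.38-fold under the control.

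Of the mitotic kinases, 2 of the 3 with a HEP-G2 control value above background (PLK1 and NEK2) lay 2-fold or more under control there, and 0 of 4 did in Li-7. PLK1, the polo-like kinase of centrosome maturation and mitotic entry, stood at 14.76 with the mimic and 15.15 with the control in Li-7, and at 13.91 with the mimic and 15.37 with the control in HEP-G2. The control values were close in the lines, and the HEP-G2 mimic value was the lowest. AURKA, the spindle pole Aurora kinase, differed by -0.16 in Li-7 and -0.97 in HEP-G2, just short of 2-fold. NEK2, a centrosome kinase, differed by -0.24 and -1.20 in the same order. AURKB, the Aurora kinase of the chromosomal passenger complex, stood at 9.09 with the mimic and 9.36 with the control in Li-7, and at 5.67 with the mimic and 7.86 with the control in HEP-G2. Since both HEP-G2 values lay under background, no fold is given for it there.

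The spindle checkpoint split into 4 genes that were lower in HEP-G2 and 1 that was not. BUB1B, the BubR1 component of the mitotic checkpoint complex, stood at 12.64 with the mimic and 12.68 with the control in Li-7, and at 9.97 with the mimic and 12.12 with the control in HEP-G2. BUB1, the kinase that recruits checkpoint proteins to kinetochores, stood at 12.90 with the mimic and 12.94 with the control in Li-7, and at 10.73 with the mimic and 12.64 with the control in HEP-G2. For both, the Li-7 values lay within 0.05 of each other, and the HEP-G2 mimic value stood alone below the other 3 arrays. TTK, the checkpoint's upstream kinase, differed by -0.31 in Li-7 and -1.91 in HEP-G2. MAD2L1, which binds and holds CDC20, differed by -0.98 and -1.98 in the same order. BUB3, a scaffold that also works outside mitosis, stood at 14.83 with the mimic and 14.65 with the control in Li-7, and at 14.78 with the mimic and 14.77 with the control in HEP-G2. All 4 BUB3 values lay within 0.19 of each other, and its HEP-G2 difference of 0.02 was the only one of the 50 that was not negative.

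The chromosomal passenger complex, which corrects faulty spindle attachments, was at least 2-fold lower in HEP-G2 for each of BIRC5, INCENP and CDCA8. BIRC5, survivin, stood at 10.59 with the mimic and 11.14 with the control in Li-7, and at 8.34 with the mimic and 10.86 with the control in HEP-G2. Its control values were close in the lines and its HEP-G2 mimic value was the lowest by far (-2.52 as a difference). INCENP, the scaffold, and CDCA8, borealin, differed in Li-7 by -0.38 and -0.28. Their HEP-G2 mimic values lay under background, so that they were at least 3.04-fold and 3.78-fold lower there.

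Kinetochore and centromere genes varied in HEP-G2, where 5 of 9 lay 2-fold or more under control with dim values at background (6 of 9 by the deposited values). Within the NDC80 complex, which grips microtubules, NDC80 stood at 11.13 with the mimic and 11.54 with the control in Li-7, and at 8.19 with the mimic and 10.53 with the control in HEP-G2. SPC24 of the same complex stood at 9.90 with the mimic and 10.35 with the control in Li-7, and at 8.91 with the mimic and 9.26 with the control in HEP-G2. NDC80 was just under background on the HEP-G2 mimic array, at least 5.03-fold lower than control. NUF2 differed by -1.63 in HEP-G2, while SPC24 was the 1 member of 50 whose Li-7 difference (-0.45) lay below its HEP-G2 difference (-0.35) by the deposited values. SPC25 also differed by -1.02 in Li-7, and its HEP-G2 mimic value under background leaves a difference there of at least 1.91-fold. In the SKA complex, which stabilises attachments in anaphase, SKA3 differed by -0.46 in Li-7 and -1.46 in HEP-G2, while SKA1 differed by -0.03 and -0.41. CENPF, of the outer corona, differed by -0.05 and -2.17, and CENPA, the centromeric histone, by 0.03 and -0.59 in the same order. CENPE, the kinesin, differed by -0.81 in Li-7 and was at least 2.94-fold lower in HEP-G2, where its mimic value lay under background.

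Spindle and cytokinesis genes included the lowest member in HEP-G2, NUSAP1, and 7 of the 9 were at least 2-fold lower there. NUSAP1, which bundles spindle microtubules, stood at 13.13 with the mimic and 13.83 with the control in Li-7, and at 9.63 with the mimic and 12.15 with the control in HEP-G2. Its HEP-G2 difference of -2.53 (5.76-fold) ranked 22 from the lowest of 12381 genes, and its Li-7 difference of -0.70 ranked 1117. HMMR, a spindle and hyaluronan-binding protein, differed by -0.50 in Li-7 and was at least 5.22-fold lower in HEP-G2, its mimic value there being just under background. DLGAP5, of spindle assembly, differed by -0.47 and -1.99, and TPX2, the activator of AURKA, by -0.16 and -1.83. ANLN, anillin of the contractile ring, stood at 14.82 with the mimic and 14.63 with the control in Li-7, and at 11.05 with the mimic and 12.56 with the control in HEP-G2. PRC1, which bundles the central spindle, differed by 0.22 in Li-7 and -1.41 in HEP-G2, so both were slightly higher with the mimic in Li-7 and lower in HEP-G2. ECT2, the exchange factor that sets the cleavage plane, stood at -0.02 and -0.45, CKAP2 at -0.03 and -0.77 and ASPM, of the spindle pole, at -0.04 and -1.09, each as a difference in Li-7 and then HEP-G2.

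**Figure D3:**
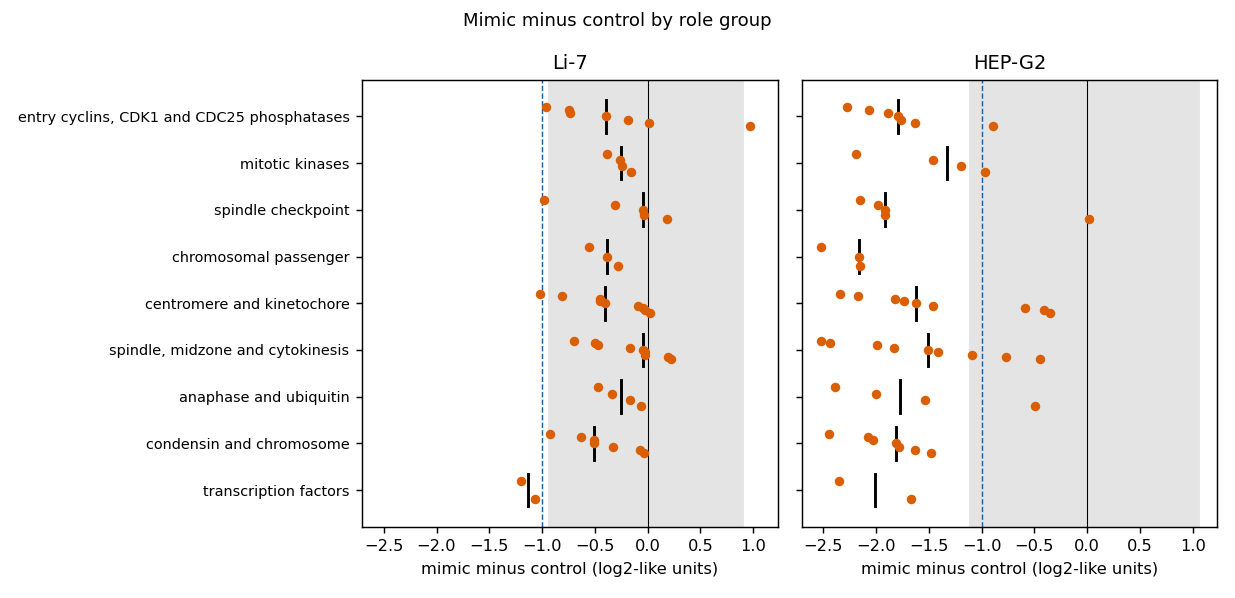
Mimic minus control (x axis, log2-like units) for each mitosis gene (orange points) by role group (rows) in Li-7 (left) and HEP-G2 (right); black bars are group medians, the grey band spans the 5th to 95th percentile of all tested genes and the dashed line marks 2-fold lower. In Li-7 only 5 members lie under the band's lower edge of -0.93, against 40 under the edge of -1.12 in HEP-G2.

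The anaphase genes included CDC20, the checkpoint's target and activator of the anaphase-promoting complex. It stood at 14.08 with the mimic and 14.15 with the control in Li-7, and at 10.44 with the mimic and 12.44 with the control in HEP-G2. It was level in Li-7 (-0.07) and lower in HEP-G2 (-1.999). UBE2C, the E2 enzyme of that complex, stood at 11.39 with the mimic and 11.86 with the control in Li-7, and at 7.55 with the mimic and 9.93 with the control in HEP-G2, at least 3.31-fold lower there. PTTG1, securin, differed by -0.34 in Li-7 and -1.54 in HEP-G2. ESPL1, separase, which securin holds in check, differed by only -0.16 and -0.50 in the same order.

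All 7 condensin and chromosome genes lay 2-fold or more under control in HEP-G2, also with dim values at background, and 0 of 7 did in Li-7. NCAPD2, a condensin I subunit, stood at 11.37 with the mimic and 12.30 with the control in Li-7, and at 8.20 with the mimic and 10.65 with the control in HEP-G2. Its HEP-G2 mimic value was just under background, at least 5.44-fold lower than control. The other condensin I subunits differed by -0.51 in Li-7 and -2.03 in HEP-G2 for NCAPH, and by -0.04 and -1.63 for NCAPG. The core ATPases that condensins share differed in Li-7 by -0.51 for SMC2 and -0.07 for SMC4. In HEP-G2, SMC4 differed by -1.48 and SMC2, with a mimic value under background, was at least 2.10-fold lower. TOP2A, the topoisomerase that untangles sister chromatids, stood at 14.12 with the mimic and 14.45 with the control in Li-7, and at 11.10 with the mimic and 13.18 with the control in HEP-G2. MKI67, the Ki-67 proliferation antigen, stood at 13.87 with the mimic and 14.50 with the control in Li-7, and at 11.42 with the mimic and 13.20 with the control in HEP-G2. TOP2A and MKI67 each stood under control in both lines, by more in HEP-G2.

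Between the lines, the Li-7 difference lay above the HEP-G2 difference in 49 of 50 members, against 51.6% of all tested genes, by a median of 1.51. For 37 members the gap was at least 1 log2 unit, against 5.6% of all tested genes. This gap has no test, since each line had 1 array per treatment. In both lines 44 members were lower with the mimic, against 31% of all tested genes, 5 were on opposite sides of 0 and BUB3 was above 0 in both. Across the 50 members the Li-7 and HEP-G2 differences had a Pearson correlation of 0.51 and a Spearman correlation of 0.555, and across all 12381 genes 0.469 and 0.439. The members share each line's pair of arrays, so these are descriptions. These comparisons use the deposited values, the 12 dim HEP-G2 members included.

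**Figure D4:**
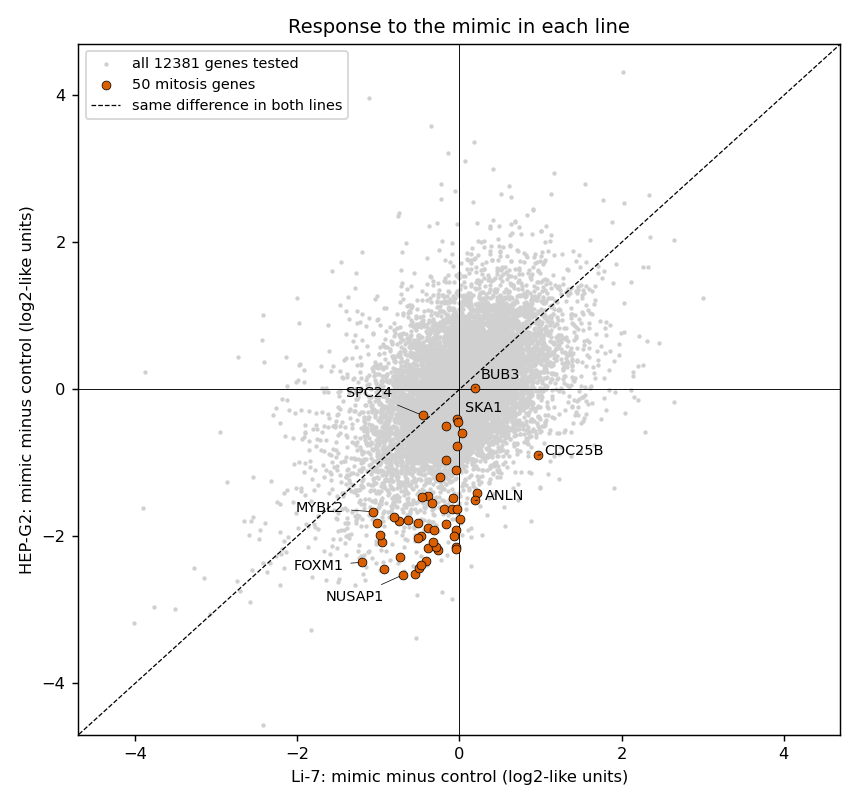
Mimic minus control in Li-7 (x axis) against HEP-G2 (y axis), in log2-like units, for all 12381 tested genes (grey) and the 50 mitosis genes (orange); the dashed line marks equal differences. Of the members, 49 lie below the dashed line, SPC24 being the exception, and BUB3 lies near the origin.

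The question whether the mimic shifted these genes in common was tested with limma over all 12381 genes, with cell line and treatment in the model. No member passed at an adjusted p of 0.05, against 42 genes called lower (0.339%) and 10 called higher (0.0808%) among all tested. At an unadjusted p of 0.05, 29 members were lower, against 9.71% of all tested genes. The mean change over the lines was negative in 48 of 50 members, against 47.4% of all tested genes, with a median of -1.10. FOXM1 came closest, with a mean change of -1.77 (SE 0.33, 95% interval -2.55 to -0.99, limma adjusted p = 0.0756). Next came MYBL2 (-1.37, SE 0.27, limma adjusted p = 0.0829) and SPC25 (-1.42, SE 0.29, limma adjusted p = 0.0851). With 4 arrays and these terms only 1 residual degree of freedom is left to a gene, so the p values measure disagreement between the lines and no replicate spread. NUSAP1, for example, had a mean change of -1.61 with an SE of 0.42 (limma adjusted p = 0.126). For CDC25B, with opposite signs, the mean change was 0.04 with an interval from -0.99 to 1.06, and for BUB3 it was 0.10 with an interval from -0.48 to 0.69. FOXM1, NCAPD2, CDK1, MAD2L1, SPC25 and MYBL2 passed under each of several other settings, so their call depends on the setting. These settings were a filter at the median gene, an intensity trend in the variance and quantile normalization over all probe sets. In the same order, the settings called 4.14%, 3.32% and 3.76% of all genes tested in either direction, against 0.42% in the main fit. CCNB2 and CENPE passed only after that quantile normalization, and MKI67 only with the trend. FOXM1 also passed with a filter on the negative control percentile, which called 2.35% of all genes tested. NCAPD2, SPC25 and CENPE had HEP-G2 mimic values under background.

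Levels in the lines themselves differed too. In the same limma fit, 42 members were higher in Li-7 than in HEP-G2, against 24.3% of all tested genes, and SKA1 was the 1 called higher in HEP-G2, against 20.7%. The median Li-7 minus HEP-G2 difference was 2.67 between the mimic arrays and 1.11 between the control arrays, and the fit averages both. Its p values for the line also rest on 1 residual degree of freedom and measure no replicate spread within a line. On the control arrays alone 44 of 50 members were higher in Li-7, against 51% of all tested genes. The HEP-G2 mimic array held the lowest value of 48 members, against 27.5% of all tested genes. DLGAP5 had the largest line coefficient of the members (2.94, SE 0.38, limma adjusted p = 0.000837), with 12.23 and 12.70 in Li-7 and 8.53 and 10.52 in HEP-G2, mimic before control. SKA1, at 8.91 and 8.94 in Li-7 and 9.70 and 10.11 in HEP-G2 in the same order, had a line coefficient of -0.98 (SE 0.25, limma adjusted p = 0.0187). The 7 members not called either way were CCNA2, CDC25C, PLK1, BUB1, BUB3, MAD2L1 and BIRC5. For 5 of these 7 the control value was higher in HEP-G2 than in Li-7, with BUB1 and BIRC5 the exceptions.

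Related lists place the mitosis genes among their neighbours. The 12 mitotic kinesins, which move chromosomes and spindle poles, had median differences of -0.49 (Li-7) and -1.91 (HEP-G2), with 0 passing the limma test. In HEP-G2 4 of the 12 were under background with the mimic and 1 with the control. With dim values at background, 10 of 11 lay 2-fold or more under control there, against 6.93% of all tested genes so counted. By the deposited values 12 of 12 did, against 6.28%. KIF20A of cytokinesis differed by -0.09 in Li-7 and -2.85 in HEP-G2. KIF14 differed by -0.68 in Li-7 and was at least 2.16-fold lower in HEP-G2. The 33 DNA replication genes had a median of -0.98 for Li-7 and -1.71 for HEP-G2. By the deposited values 16 of them lay 2-fold or more under control in Li-7 and 28 in HEP-G2. Many were dim, with 6 under background on each Li-7 array, 15 on the HEP-G2 mimic array and 9 on the HEP-G2 control array. With dim values at background the counts were 13 of 27 for Li-7 and 20 of 24 for HEP-G2. Counted so, all tested genes gave 5.17% of 6494 for Li-7 and 6.93% of 6966 for HEP-G2. In the limma test 2 fell, against 0.339% of all tested genes. These were RFC3, a clamp loader subunit (mean change -2.26, SE 0.24, limma adjusted p = 0.0301), and MCM10, an initiation factor under background on all 4 arrays (mean change -2.18, SE 0.24, limma adjusted p = 0.0308). By the deposited values the median gap between lines was 1.51 for the mitosis genes, 1.42 for the kinesins and 0.55 for replication genes, Li-7 minus HEP-G2. Of 19 measured genes of the constitutive centromere and its neighbours, the medians were -0.33 for Li-7 and -1.37 for HEP-G2, and 0 passed. With dim values at background, 8 of 15 lay 2-fold or more under control in HEP-G2, against 6.93% of all tested genes so counted. By the deposited values 12 of 19 did, against 6.28%. CENPM, of the inner kinetochore, differed by -1.29 in Li-7 and was at least 2.87-fold lower in HEP-G2. ZWINT, of the outer one, differed by -0.99 and -1.60 in the same order.

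**Figure D5:**
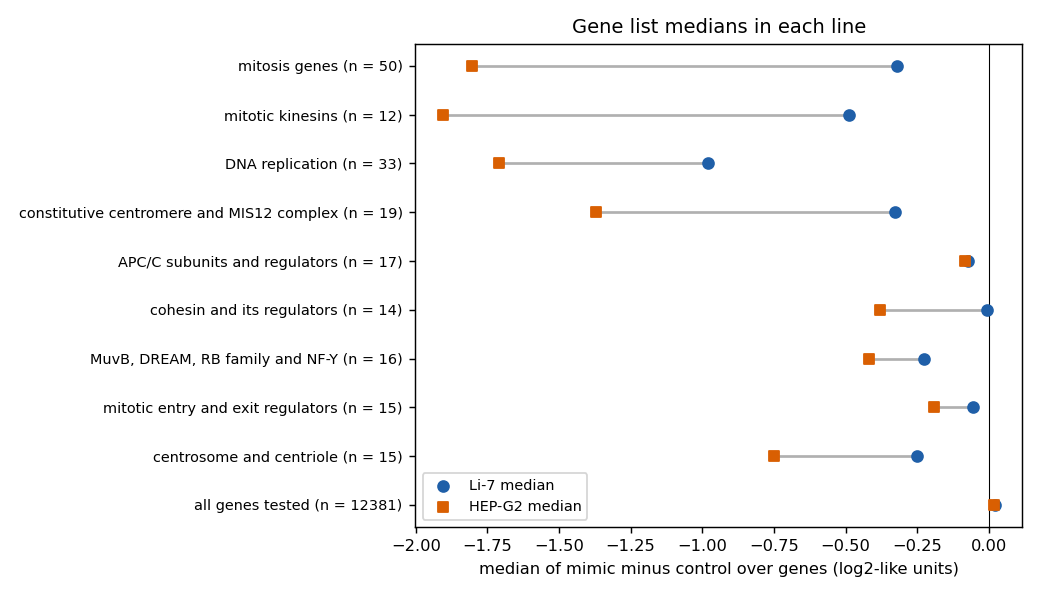
Median of mimic minus control over the genes of each list (x axis, log2-like units) in Li-7 (blue circles) and HEP-G2 (orange squares), with the number of genes tested per list. The mitosis genes and mitotic kinesins have the widest gaps between the lines, replication genes are lower in both, and the subunits of the anaphase-promoting complex lie near 0 in both.

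The other 5 lists had medians nearer to 0. The 17 subunits and regulators of the anaphase-promoting complex had a median of -0.07 (Li-7) and -0.08 (HEP-G2), although FBXO5, its inhibitor EMI1, differed by -0.99 and -1.03. UBE2S, its chain-elongating enzyme, differed by -0.44 in Li-7 and was under background on both HEP-G2 arrays. Cohesin and its regulators (14 genes) had medians of -0.01 and -0.38, in the same order. CDCA5, sororin, differed by -0.98 in Li-7 and ESCO2, a cohesin acetyltransferase, by -1.38. In HEP-G2, where both mimic values lay under background, CDCA5 was at least 4.07-fold and ESCO2 at least 2.97-fold lower. Genes of MuvB, DREAM, the RB family and NF-Y (16 genes) had a median of -0.23 (Li-7) and -0.42 (HEP-G2). In that list RBL1, the pocket protein p107, differed by -1.23 and -1.36, and LIN9, a MuvB subunit, by -0.04 in Li-7, with both HEP-G2 values under background. The 15 mitotic entry and exit regulators had medians of -0.06 and -0.19, the 15 centrosome genes of -0.25 and -0.75, again Li-7 before HEP-G2. WEE1, the kinase that restrains CDK1, stood at 12.89 with the mimic and 11.56 with the control in Li-7, and at 11.88 with the mimic and 11.29 with the control in HEP-G2. It was higher with the mimic in both lines but did not pass (mean change 0.96, SE 0.28, limma adjusted p = 0.149). TACC3, of spindle microtubules, differed by -0.54 in Li-7 and -2.21 in HEP-G2. GTSE1, a regulator of p53, differed by -1.12 in Li-7 and CEP152, of centriole duplication, by -0.96, and both were under background on both HEP-G2 arrays. In these lists 0 genes passed the limma test at the adjusted threshold. At an unadjusted p of 0.05, 19.5% of all tested genes passed. The lists had 2 of 17 (anaphase-promoting complex), 4 of 14 (cohesin), 5 of 16 (MuvB and its partners), 4 of 15 (entry and exit) and 8 of 15 (centrosome).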

How the data were processed

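The deposited values, read as log2, form 1 table with a column per array and a line per probe set. Per the submitters' processing notes it was made with Affymetrix Expression Console and Transcriptome Analysis Console. The sources used here state neither normalization nor log base, and values ran from 1.48 to 18.3. Of 24351 probe sets, 17709 paired with 1 gene through the platform's annotation and the other probe sets with none. Symbols were updated through Entrez identifiers with RefSeq (GRCh38.p14). The brightest probe set by mean was kept for the 20 of 17687 genes that had more than 1. The test took the 12381 genes whose mean reached the 30th percentile over named genes (4.90). That level lies under background, and 5315 of these genes were under background on the HEP-G2 mimic array.

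No normalization was added. The fit used limma 3.58.1 in R 4.3.3 (lmFit and eBayes, 5.85 prior degrees of freedom), with cell line and treatment as terms. Benjamini-Hochberg adjustment was over all genes tested. The procedure was tested on simulated data with the same mimic effect in both lines, which does not cover unequal responses of the lines. Background was the 95th percentile of 612 negative control probe sets per array. A fold from a mimic value under background is given as "at least", against that level, and none is given where the control value is under it too. Counts, medians, figures and the limma fit use the deposited values unless stated. The number of arrays limits precision.

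The members, role groups, related lists, motifs and rules were chosen with earlier results of these data known. Named genes were all members, HMGA1, and per related list the genes that passed and the 2 with the largest absolute mean change. Related genes without a probe set used here were left out, and PKMYT1 lay under the filter. Printed promoters were at most 6, 1 per role group. Alternatives were other normalizations, filters, probe-set summaries, variance models and size limits. Normalization over named genes only was added after seeing the data.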

Additional observations from a re-analysis of the deposited data

Results flagged for a closer look

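The lines lay on opposite sides of control for 5 mitosis genes, each from 1 array per treatment, and these differences between the lines were not tested. As mimic minus control, CDC25B gave 0.97 (Li-7) and -0.89 (HEP-G2), the only one of the 5 beyond 0.25 above its control. ANLN stood at 0.19 and -1.51 and PRC1 at 0.22 and -1.41 in the same order. For CDC25C (0.0135 and -1.77, the HEP-G2 mimic value being just under background) and CENPA (0.0266 and -0.59) the Li-7 values were level within 0.05, so their sign there rests on a very small difference.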

How the results depend on the processing

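Member medians were negative in both lines under every normalization run. Those outside a 0.1 shift were the HEP-G2 median after cyclic loess (-1.70) and the line difference after median centring (1.72). The other filters and the probe-set summary could not move these medians, since all 50 members passed each filter and each had 1 probe set. At a limit of 1.5-fold in place of 2-fold, the count of lower members was 11 for Li-7 and 45 for HEP-G2. Shares of all tested genes were not taken at 1.5-fold, so these 1.5-fold counts cannot be set against genes at large. Members called lower in common numbered 8 of 50 after quantile normalization, 6 with a filter at the median gene and 7 with an intensity trend. A filter on the negative control percentile gave 1 of 50, and the other settings gave 0. In the same order, all genes called lower were 273 of 12381, 239 of 8844, 253 of 12381 and 141 of 8497. Genes called in either direction were 3.76%, 4.14%, 3.32% and 2.35% of the same totals. The 1 of 50 is thus near the share over all genes. Over all genes the calls lower and higher were 273 and 192 after quantile normalization, 19 and 4 after cyclic loess, 239 and 127 with the median filter, 141 and 59 with the negative control filter, and 253 and 158 with the trend. With normalization over named genes only they were 67 and 20 (quantile) and 0 and 0 (cyclic loess). An ordinary t called 0 lower and 1 higher, and a model without cell line 0 and 0. For the line difference, an ordinary t called 1 gene in all, with 0 members either way. Leaving out treatment gave 19 of 50 members higher in Li-7 and 0 higher in HEP-G2. That model called 3791 of the 12381 genes in either direction. Calls lower made up 80.8% as deposited and 58.7% after quantile normalization. No paired analysis was possible because the arrays carry no replicate numbers, beyond the pairing by cell line that the model itself contains.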
